A study of Mus musculus with 40 samples.

Results

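Saracatinib, an oral inhibitor of Src family kinases, was compared with vehicle in the lungs of mice with bleomycin-induced fibrosis. The comparison took the 5 libraries labelled bleomycin and saracatinib and the 5 labelled bleomycin and vehicle, which are 10 of the 40 libraries of the series, and ran over the 18846 genes that passed a filter on low counts. All mice were of the strain C57BL/6, and each library is the RNA of 1 left lung. The bleomycin saracatinib group received 1.5 U/kg of bleomycin into the oropharynx and then 20 mg/kg of saracatinib by daily gavage, begun on day 10. The bleomycin vehicle group received the same bleomycin and a gavage of vehicle over the same days. Both groups were treated for 18 days and their lungs harvested on day 28. A saline saracatinib group and a saline vehicle group of 5 libraries each, with saline in place of bleomycin, entered the same fit. Their values are given beside the results for part of the genes and lists only. The other 20 libraries come from mice given an adenovirus and were not used. Whether the 5 mice of a group shared a cage or a day of work is not given in the labels, so p-values measure the spread between these libraries.

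Bleomycin breaks DNA strands, injures the alveolar epithelium and is followed by repair with inflammation, fibroblast activation and collagen deposition, which in mice partly resolves with time. In this process fibroblasts of the alveolar wall give way to a matrix-producing state that transforming growth factor beta drives, macrophages recruited from blood monocytes settle in the scar, and alveolar type 2 cells pass through a transitional state on the way to type 1 cells. Src family kinases sit at focal adhesions and below growth factor receptors and integrins, and signal in fibroblasts, epithelium, endothelium, myeloid cells and lymphocytes.

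Total counts were 12.7 to 13.9 megacounts (M) per library in the bleomycin saracatinib group, 11.4 to 17.3 M in the bleomycin vehicle group, 8.81 to 16.3 M in the saline saracatinib group and 9.51 to 13.7 M in the saline vehicle group. Levels are given in CPM, counts divided by the library total in megacounts, with totals scaled by the trimmed mean of M-values (TMM), whose factors ran from 0.949 to 1.03. Markers of lung were present in the 10 bleomycin libraries, with the surfactant gene Sftpc at 2050 to 3290 CPM, the club cell gene Scgb1a1 at 1380 to 2240 CPM, the type 1 cell gene Ager at 870 to 1280 CPM and the endothelial gene Pecam1 at 394 to 663 CPM. The labels say that both sexes were studied, whereas each of the 20 libraries had 3 to 11 counts of Xist and 699 to 2234 counts of the Y-linked gene Ddx3y. On the first principal component of the 20 libraries, which held 48.4% of the variance, the saracatinib libraries lay from -36.9 to 1.88 and the vehicle libraries from -89.7 to -39.1 in bleomycin lungs, against 20 to 62.7 in saline lungs. Vehicle library 3 of the bleomycin group lay at the far end. In the 10 bleomycin libraries alone it stood at 71.7 on the first component and saracatinib library 2 at -42.3. From here on, saracatinib library 1 to 5 and vehicle library 1 to 5 mean those of the bleomycin groups unless saline is named.

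Saracatinib changed a broad set of transcripts in bleomycin lungs, with more genes lower than higher. edgeR's quasi-likelihood test called 2643 of 18846 genes, or 14%, at a Benjamini-Hochberg adjusted p under 0.05, a threshold used for every call below. Saracatinib lungs had 1001 of them at a higher level (5.31%) and 1642 at a lower level (8.71%). The median log2 fold change was 0.01 over all tested genes, and the median size of a called change was 0.52. A called change of at least 2-fold was found in 504 genes (2.67%), with 146 up and 358 down. The 2 groups of 5 libraries did not overlap in CPM for 1873 genes (9.94%), with 735 higher (3.9%) and 1138 lower (6.04%). Fold changes below are log2 values of saracatinib over vehicle with the standard error (SE) of the fit, CPM means carry the standard deviation (SD) over n = 5, and adjusted p-values come from edgeR over all 18846 genes.

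**Figure D1:**
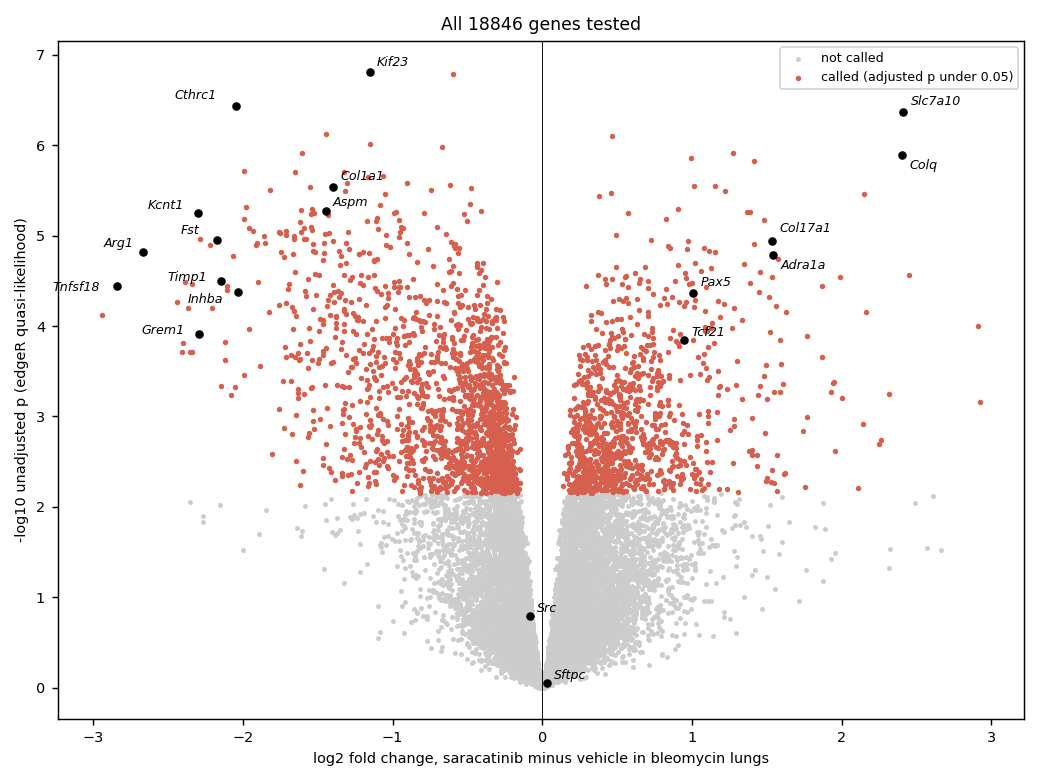
Each of the 18846 tested genes is a point, with the log2 fold change of saracatinib over vehicle in bleomycin lungs on the x axis and -log10 of edgeR's unadjusted p on the y axis. Red points passed the adjusted threshold (2643 genes), named genes are black, and the 1642 called lower outnumber the 1001 called higher.

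The number of calls depended on single libraries. Without saracatinib library 2 the count was 1326, without saracatinib library 3 it was 1470, without vehicle library 2 it was 1690, and without vehicle library 3 it was 1339. A set of 1131 genes, 385 higher and 746 lower, was called with all libraries and in each of the 10 fits that left out 1 bleomycin library, and 1125 of them were also called by DESeq2 and by limma voom. Counts of list members below are given over all libraries and then, as "held", over these 10 fits. They are to be read beside the shares called over all 18846 genes, 5.31% higher and 8.71% lower, and beside the 385 and 746 genes that held. Many lists share members, so 1 gene can enter more than 1 count. Of the 227 called genes named by the naming rule, 179 held, and losses are given where a gene is described.

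**Figure D2:**
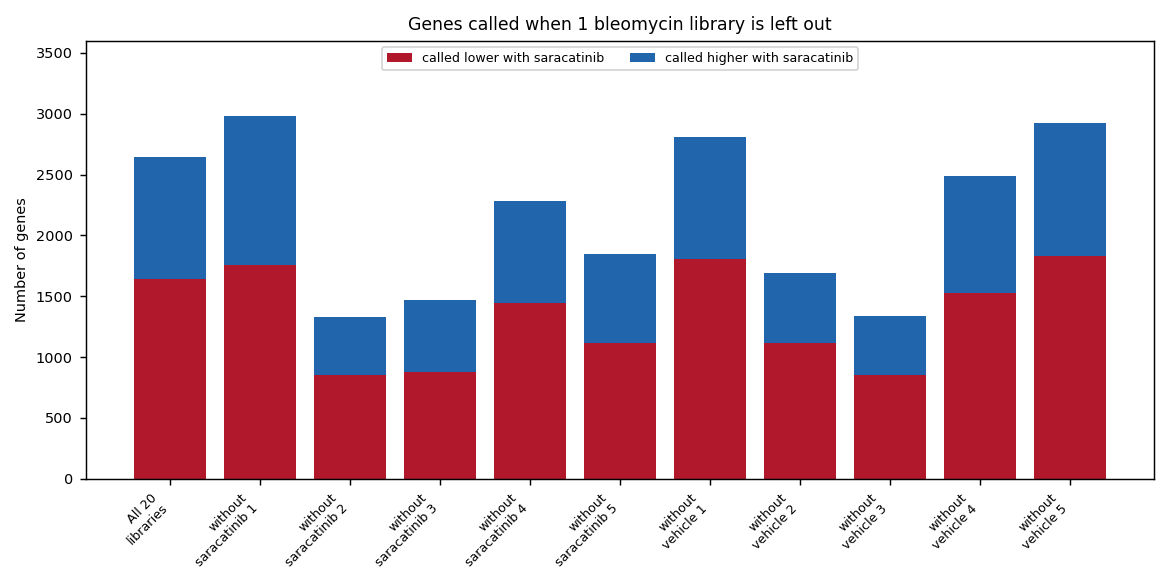
Stacked bars give the number of genes called lower (red) and higher (blue) with saracatinib, with all 20 libraries at the left and then without each bleomycin library in turn. The lowest bars, 1326 and 1339 genes, are those without saracatinib library 2 and without vehicle library 3.

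Genes of cell division were lower with saracatinib almost throughout. Of 40 tested mitotic genes 39 fell and 1 rose, with a median log2 fold change of -1.39, against 0.01 over all genes, and 36 falls and the rise held. Top2a (chromosome 11, 98992943 to 99024189 on GRCm38), which encodes topoisomerase II alpha, had 38.2, 17.3, 15.4, 23.3 and 18.3 CPM in saracatinib libraries 1 to 5, against 34.4, 79.7, 116, 49 and 56.5 CPM in vehicle libraries 1 to 5. The groups overlapped only because saracatinib library 1 was above vehicle library 1, and the change was -1.58 ± 0.27 (adjusted p = 0.00225). Ccnb1 (chromosome 13, 100778650 to 100786570), the cyclin that drives entry into mitosis, had 3.2, 1.3, 1.39, 2.91 and 1.72 CPM with saracatinib and 3.68, 9.03, 13.9, 4.86 and 6.39 CPM with vehicle. All 5 saracatinib libraries lay below all 5 vehicle libraries, with a change of -1.85 ± 0.32 (adjusted p = 0.00225). Aspm, a spindle pole protein, averaged 6.71 ± 1.91 CPM with saracatinib and 18.3 ± 6.41 CPM with vehicle (-1.45 ± 0.24, adjusted p = 0.00207). Kif23, a kinesin of cytokinesis, averaged 10.1 ± 1.63 CPM with saracatinib and 22.4 ± 5.35 CPM with vehicle (-1.15 ± 0.15, adjusted p = 0.00154). The mean Kif23 levels of saline lungs were 9.94 CPM with saracatinib and 11.7 CPM with vehicle. The riser was Pttg1, securin, the inhibitor of separase, with 15.5 to 20.6 CPM in saracatinib libraries and 10.3 to 14 CPM in vehicle libraries (0.57 ± 0.09, adjusted p = 0.00207).

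Promoters of some called genes of these lists are shown because the cell cycle elements known from other work lie near the start of transcription. Each is 75 bases before to 25 bases after the start in RefSeq on GRCm38.p6, 5′ to 3′ on the strand of the gene. The genes were chosen after their values were seen, as the called members with the lowest p that met 2 conditions. They held the letters in this window, and their RefSeq start lay within 5 bases of the outermost annotated start. Genes of 1 chromosome were left out of this choice. Capitals mark the letters of the cell cycle homology region (CHR, TTTGAA or TTCGAA), the CCAAT box (ATTGG) and the E2F element (TTCCCGC or TTGGCGC), searched on both strands.
Aspm, chr1:139454698-139454797, plus strand: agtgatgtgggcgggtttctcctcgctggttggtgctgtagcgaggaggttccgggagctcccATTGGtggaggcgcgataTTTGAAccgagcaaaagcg
Cenpf, chr1:189688062-189688161, minus strand: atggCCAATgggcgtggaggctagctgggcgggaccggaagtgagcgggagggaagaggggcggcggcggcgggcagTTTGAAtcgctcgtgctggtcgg
Top2a, chr11:99024165-99024264, minus strand: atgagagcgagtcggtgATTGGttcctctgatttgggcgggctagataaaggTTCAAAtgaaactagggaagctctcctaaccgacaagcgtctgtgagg
Racgap1, chr15:99651632-99651731, minus strand: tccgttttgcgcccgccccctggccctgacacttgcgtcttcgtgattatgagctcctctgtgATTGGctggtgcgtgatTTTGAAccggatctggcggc
Rrm1, chr7:102441620-102441719, plus strand: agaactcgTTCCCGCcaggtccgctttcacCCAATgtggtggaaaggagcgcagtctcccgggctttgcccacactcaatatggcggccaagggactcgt
The 4 mitotic promoters each hold 1 CHR and 1 CCAAT box, and the Rrm1 promoter holds 1 E2F element and 1 CCAAT box. Cenpf, a kinetochore protein, fell by 1.54 ± 0.26 on the log2 scale and Racgap1, a regulator of cytokinesis, by 1.36 ± 0.24.

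Windows of 300 bases, 250 before to 50 after the start, were found for 34 of the 40 called mitotic genes. CHR letters stood in 26 of 34 (76.5%), against 19.4% of all 27025 windows, and the CCAAT box in 24 (70.6%), against 37.9%. Both stood in 22 (64.7%), against 7.7% of all windows. E2F letters stood in 9 of the 19 called replication genes with a window (47.4%), against 6.93% of all windows, and in 4 of the 34 mitotic genes (11.8%). Over the 12274 windows of tested genes the shares were 14.4% for CHR letters, 38% for the CCAAT box and 11.5% for E2F letters, so that the share of E2F letters in mitotic genes was close to that of tested genes. In the 100 bases nearest the start, CHR letters stood in 16 of the 34 mitotic genes (47.1%), against 5.59% of all windows. The AP-1 element (TGANTCA) stood in 1 of 9 called activated fibroblast genes with a window, and the TEAD element (GGAATG) in 1 of 9 of them, against 7.93% and 14.6% of all windows and 5.48% and 12.3% of those of tested genes. These are matches of letters, and binding was not measured. All 40 tested mitotic genes were called, the riser included, so there was no uncalled mitotic gene to compare with. The mitotic shares therefore describe the list and not the change with saracatinib. Of the 34 tested replication genes 13 were not called, and the share of E2F letters among these was not computed. The replication share is therefore not tied to the change with saracatinib either.

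The machinery of DNA replication and the histones made in S phase fell as well. Of 34 replication licensing and fork genes, 21 fell and 0 rose (median -0.55), and 11 held. The count was 12 without saracatinib library 2, 12 without saracatinib library 3, 13 without vehicle library 2 and 11 without vehicle library 3. Rrm2, the regulated subunit of ribonucleotide reductase, had 7.7, 2.6, 2.54, 5.44 and 3.91 CPM in saracatinib libraries and 6.22, 14, 22.9, 10.8 and 11.1 CPM in vehicle libraries. Saracatinib library 1 exceeded vehicle library 1, and the change was -1.55 ± 0.33 (adjusted p = 0.00575). Rrm1, the large subunit, averaged 31.1 ± 2.95 CPM with saracatinib and 46.1 ± 12 CPM with vehicle (-0.57 ± 0.13, adjusted p = 0.00814). Of 26 replication-dependent histone genes 16 fell and 0 rose (median -1.08), and 14 held. Hist1h3c, a histone H3 gene, had 3.08 to 11.4 CPM with saracatinib and 9.16 to 33.7 CPM with vehicle (-1.65 ± 0.30, adjusted p = 0.00295). Histone genes are close copies of each other, so the split of reads between them is uncertain.

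Collagens of the interstitial scar were lower with saracatinib. Of 10 fibrillar collagen genes 8 fell and 0 rose, with a median of -1.18, and the 8 held. In saline lungs their summed level was 2220 to 2680 CPM with saracatinib and 2770 to 3480 CPM with vehicle. Their mean log2 CPM overlapped there, at 5.7 to 5.82 with saracatinib and 5.67 to 6.1 with vehicle. Col1a1 (chromosome 11, 94936224 to 94953042), a chain of collagen I, had 1320, 772, 697, 1150 and 814 CPM in saracatinib libraries 1 to 5, against 1780, 2600, 4390, 1740 and 2020 CPM in vehicle libraries. Every saracatinib library lay below every vehicle library, and within each group libraries 1 and 4 of the saracatinib group and library 3 of the vehicle group were highest. The change was -1.40 ± 0.22 (adjusted p = 0.00198). In saline lungs Col1a1 averaged 612.7 ± 44 CPM with saracatinib and 765.7 ± 94.8 CPM with vehicle. Col1a2, its partner chain, averaged 864 ± 189 CPM with saracatinib and 1831 ± 631 CPM with vehicle in bleomycin lungs (-1.08 ± 0.17). Col3a1, the chain of collagen III, changed by -0.76 ± 0.15, and Col5a1, a chain of the collagen V that nucleates fibrils, by -1.21 ± 0.22, both without overlap between groups. In bulk lung, fewer cells of a type and less RNA per cell cannot be told apart, here and for every cell type below.

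Among the other collagens and the enzymes that process collagen, called genes were mostly lower, and about as many genes were not called. Of 21 other collagen genes 9 fell and 2 rose (median -0.05), and 6 falls and both rises held. Col7a1, of anchoring fibrils, averaged 54 ± 11.9 CPM with saracatinib and 118 ± 46.6 CPM with vehicle (-1.12 ± 0.20), and Col8a1, a short-chain collagen, changed by -1.06 ± 0.16. Col10a1, which is best known from growth plate cartilage, had 1.68, 0.0721, 0.0771, 1.38 and 0.156 CPM in saracatinib libraries and 3.44, 3.94, 3.7, 2.39 and 3.82 CPM in vehicle libraries. Saracatinib libraries 1 and 4 were nearest to the vehicle group, still below it (-2.36 ± 0.52, adjusted p = 0.00658). Col17a1, the hemidesmosomal collagen of epithelium, went the other way, with 5.16 to 8.22 CPM with saracatinib and 1 to 2.95 CPM with vehicle (1.53 ± 0.26, adjusted p = 0.00225). Of 29 collagen processing and crosslinking genes 13 fell and 1 rose (median -0.25), 8 falls and the rise held, and the falls numbered 8 without saracatinib library 3. P4ha3, a prolyl hydroxylase subunit, averaged 5.35 ± 2.73 CPM with saracatinib and 21.1 ± 11.1 CPM with vehicle (-1.98 ± 0.32, adjusted p = 0.00207). Loxl2, which crosslinks collagen, changed by -1.29 ± 0.23. The riser was Pcolce2, an enhancer of procollagen processing, at 126 ± 42.7 CPM with saracatinib and 49.6 ± 13.2 CPM with vehicle (1.35 ± 0.24).

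Called glycoprotein and proteoglycan genes of the matrix were mostly lower, beside many that were not called. Of 29 matricellular and adhesive glycoprotein genes 13 fell and 4 rose (median -0.45), 9 falls and 2 rises held, and the rises numbered 2 without any one of saracatinib libraries 2 and 3 and vehicle libraries 2, 4 and 5. Tnc (chromosome 4, 63959785 to 64047015), tenascin C, had 269, 81.5, 115, 190 and 148 CPM in saracatinib libraries and 330, 664, 1170, 383 and 368 CPM in vehicle libraries. Again no libraries of the groups overlapped, and the change was -1.86 ± 0.32 (adjusted p = 0.00223). Fn1 (chromosome 1, 71585520 to 71653200), fibronectin, had 2390, 1220, 1440, 2310 and 1650 CPM with saracatinib and 2930, 4420, 7760, 3310 and 4040 CPM with vehicle, likewise without overlap (-1.32 ± 0.26, adjusted p = 0.00366). Thbs2, a thrombospondin, averaged 12 ± 7.81 CPM with saracatinib and 58.5 ± 36.2 CPM with vehicle (-2.28 ± 0.39). Thbs4, another thrombospondin, had 16.2, 1.08, 1, 13 and 3.2 CPM with saracatinib and 25.7 to 53.7 CPM with vehicle (-2.34 ± 0.51, adjusted p = 0.00658). Saracatinib libraries 1 and 4 were the highest of their group for Thbs4, as for Col1a1, Tnc and Col10a1. Among the risers, Tnxb, the tenascin X gene, averaged 291 ± 86.8 CPM with saracatinib and 120 ± 31.4 CPM with vehicle (1.28 ± 0.19, adjusted p = 0.00198).

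Of 21 elastic fibre and microfibril genes 9 fell and 4 rose (median -0.32), and 7 falls and 3 rises held. The mean log2 CPM of this list was 6.31 to 6.65 with saracatinib and 6.75 to 7.14 with vehicle. In saline lungs it was also lower with saracatinib, at 5.94 to 6.4, against 6.41 to 6.57 with vehicle. List levels were not tested. Eln, elastin, averaged 1002 ± 268 CPM with saracatinib and 1948 ± 338 CPM with vehicle (-0.96 ± 0.16), and Adamtsl4, a fibrillin-binding protein, was higher at 104 ± 5.95 CPM with saracatinib and 75.8 ± 6.85 CPM with vehicle (0.46 ± 0.07). Of 24 proteoglycan and hyaluronan genes 9 fell and 2 rose (median -0.28), and 6 falls and 1 rise held. The rises numbered 1 without any one of saracatinib libraries 2, 3 and 5 and vehicle libraries 1, 3 and 5. Has2, a hyaluronan synthase, had 2.9, 0.577, 0.694, 0.995 and 1.25 CPM with saracatinib and 2.78, 6.8, 17.6, 2.65 and 5 CPM with vehicle. Saracatinib library 1 was above vehicle libraries 1 and 4, and the change was -2.44 ± 0.48 (adjusted p = 0.0037). Vcan, the proteoglycan versican, changed by -1.38 ± 0.28, and Cd44, the hyaluronan receptor, by -0.56 ± 0.10, both without overlap.

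**Figure D3:**
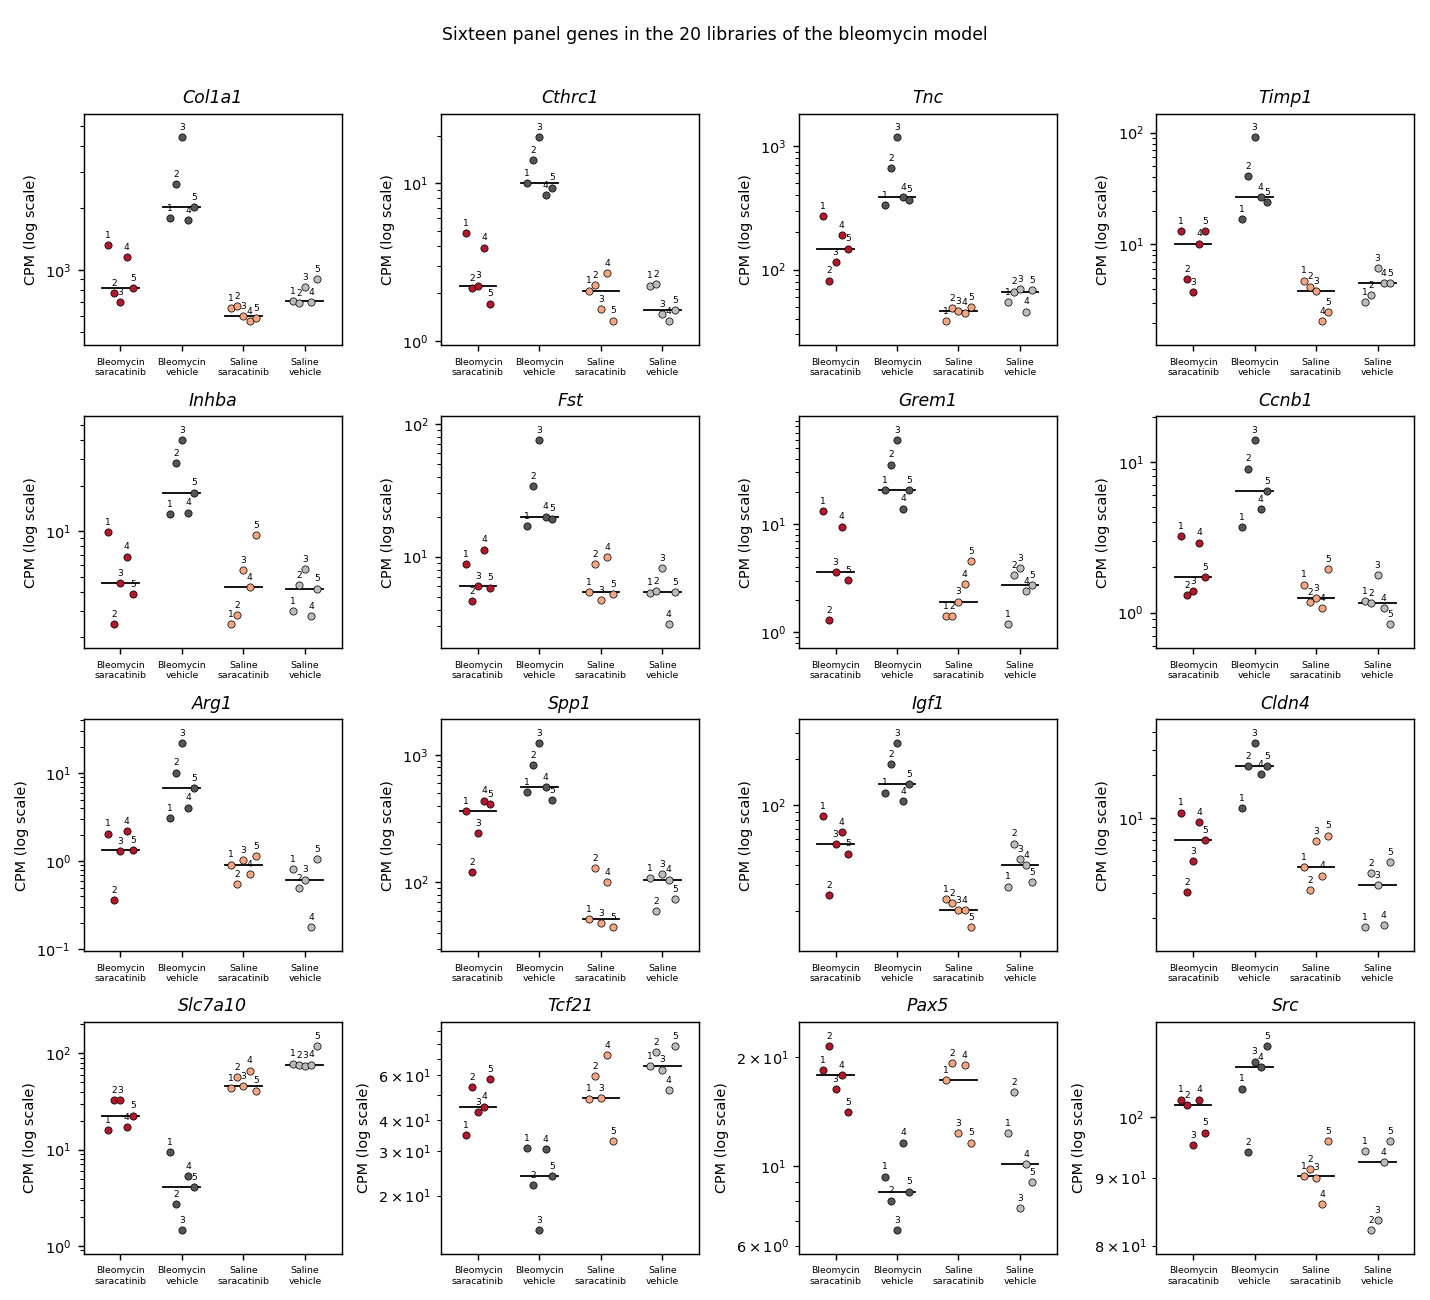
Levels of 16 genes in CPM on log axes, 1 point per library with its number beside it and a line at the group's median, for bleomycin saracatinib, bleomycin vehicle, saline saracatinib and saline vehicle lungs. The fibrosis genes are lower in bleomycin saracatinib than in bleomycin vehicle lungs, Slc7a10, Tcf21 and Pax5 are higher, and Src overlaps.

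Proteases and their inhibitors moved in both directions. Of 24 matrix metalloproteinase and ADAMTS genes 7 fell and 4 rose (median -0.42), and 4 falls and 2 rises held. The falls numbered 4 without saracatinib library 2 or vehicle library 3, and the rises 2 without any one of saracatinib libraries 2, 3 and 5 and vehicle libraries 2 and 3. Mmp14, a membrane-bound collagenase, averaged 124 ± 30.7 CPM with saracatinib and 235 ± 60.8 CPM with vehicle (-0.93 ± 0.16, adjusted p = 0.00223). Of 16 genes of protease inhibitors and the plasminogen system 6 fell and 1 rose (median -0.61), and 4 falls and the rise held. Timp1 (chromosome X, 20870166 to 20874735), an inhibitor of metalloproteinases, had 13.1, 4.9, 3.78, 10.2 and 13.1 CPM with saracatinib and 16.9, 41.2, 90.7, 26.7 and 23.8 CPM with vehicle. All saracatinib libraries were below all vehicle libraries (-2.15 ± 0.40, adjusted p = 0.00314). Plau, the urokinase gene, changed by -0.69 ± 0.18. Reck, a membrane-anchored inhibitor of metalloproteinases, rose to 67.2 ± 12.2 CPM with saracatinib, against 44.2 ± 4.08 CPM with vehicle (0.61 ± 0.15, adjusted p = 0.0103).

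Markers of activated fibroblasts and of alveolar fibroblasts moved in opposite directions. Of 27 activated fibroblast markers 14 fell and 0 rose (median -0.57), and 11 held. Of the 11, Cthrc1 and Tnc are also on the glycoprotein list and Grem1 on the bone morphogenetic protein list. Inhba, Fst and Ltbp2 are also on the transforming growth factor beta and activin list. Cthrc1 (chromosome 15, 39076932 to 39087121), a secreted protein of matrix-producing fibroblasts, had 4.8, 2.16, 2.24, 3.9 and 1.72 CPM with saracatinib and 9.98, 14, 19.5, 8.4 and 9.37 CPM with vehicle. The groups were apart, and the change was -2.05 ± 0.28 (adjusted p = 0.00198). The mean Cthrc1 level in saline lungs was 1.99 CPM with saracatinib and 1.78 CPM with vehicle. Adam12, a metalloproteinase of activated mesenchyme, averaged 6.53 ± 2.5 CPM with saracatinib and 22 ± 12.1 CPM with vehicle in bleomycin lungs (-1.75 ± 0.30). Of 17 adventitial fibroblast markers 2 rose and 4 fell (median -0.07), and 1 rise and 2 falls held. The rises numbered 1 without any one of saracatinib libraries 2, 3 and 5 and vehicle libraries 3 and 5, and the falls 2 without vehicle library 3. Clec3b, the plasminogen-binding protein tetranectin, averaged 51.1 ± 3.74 CPM with saracatinib and 27.7 ± 8.97 CPM with vehicle (0.89 ± 0.17, adjusted p = 0.00314). Of 15 pericyte markers 1 rose and 2 fell (median 0.10), and 1 fall held. The pericyte rise was lost without any one of saracatinib libraries 2 to 5 and vehicle libraries 2 to 5, and the rises numbered 3 without saracatinib library 1 and 2 without saline saracatinib library 5. The pericyte falls numbered 1 without any one of saracatinib libraries 2, 3 and 5 and vehicle library 3. Cd248, the adventitial and pericyte protein endosialin, changed by -1.34 ± 0.26, and Rgs5, a regulator of G protein signalling in pericytes, averaged 9.1 ± 3.72 CPM with saracatinib and 36.3 ± 16.1 CPM with vehicle (adjusted p = 0.00198).

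Of 25 alveolar fibroblast markers 11 rose and 1 fell (median 0.41), and 6 rises held. The rises numbered 6 without saracatinib library 2, 7 without saracatinib library 5, 7 without vehicle library 2 and 6 without vehicle library 3, and the fall was lost without any one of saracatinib libraries 2 and 3 and vehicle libraries 2 and 3. Slc7a10 (chromosome 7, 35186385 to 35201114), a transporter of small neutral amino acids, had 15.8, 32.4, 32.5, 17 and 22.5 CPM with saracatinib and 9.49, 2.69, 1.46, 5.3 and 4.09 CPM with vehicle. The groups did not overlap (2.41 ± 0.33, adjusted p = 0.00198), and both lay below saline lungs, which averaged 50.7 CPM with saracatinib and 84.8 CPM with vehicle. Tcf21 (chromosome 10, 22817281 to 22820174), a transcription factor of lung mesenchyme, had 34.7, 54, 42.9, 45.1 and 58.1 CPM with saracatinib and 30.8, 22, 14.6, 30.6 and 23.9 CPM with vehicle. It too was without overlap (0.95 ± 0.20, adjusted p = 0.00562). Inmt, an N-methyltransferase, had 237 to 614 CPM with saracatinib and 78.7 to 241 CPM with vehicle. The Inmt groups overlapped by saracatinib library 1 alone (1.46 ± 0.27, adjusted p = 0.00293). Fgfr4, a receptor for fibroblast growth factors, averaged 26.2 ± 5 CPM with saracatinib and 12.2 ± 2.63 CPM with vehicle (1.11 ± 0.20), Itga8, the integrin alpha 8 chain, changed by 0.71 ± 0.15, and the ligand gene Wnt2 by 0.72 ± 0.17. The faller was Lpl, lipoprotein lipase, named here after its values were seen (-0.73 ± 0.20, adjusted p = 0.0235).

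**Figure D4:**
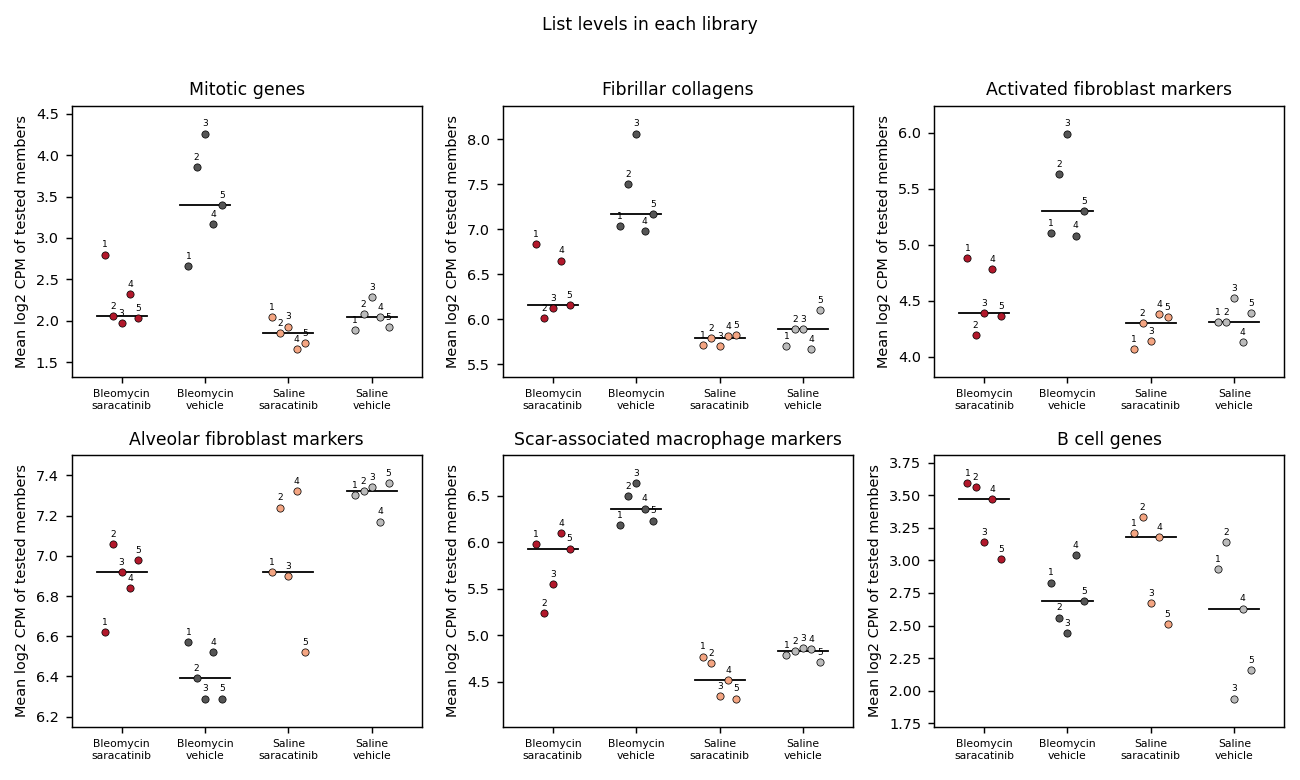
Mean log2 CPM over the tested members of 6 lists, 1 point per library with its number and a line at the group's median. Fibrillar collagens, activated fibroblast markers and scar-associated macrophage markers are lower in every bleomycin saracatinib library than in any bleomycin vehicle library, alveolar fibroblast markers are higher, and mitotic and B cell genes overlap.

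Called genes of the transforming growth factor beta and activin axis were mostly lower with saracatinib, and a similar number of its genes were not called. Of its 35 tested genes 14 fell and 3 rose (median -0.28), 10 falls and 1 rise held, and the rises numbered 1 without saracatinib library 2. Inhba (chromosome 13, 16011851 to 16031621), the activin A subunit, had 9.9, 2.45, 4.55, 6.81 and 3.83 CPM with saracatinib and 13, 28.1, 39.9, 13.3 and 18 CPM with vehicle, without overlap (-2.03 ± 0.39, adjusted p = 0.00335). Fst (chromosome 13, 114452290 to 114458951), follistatin, which binds and blocks activin, fell with its ligand, at 8.76, 4.61, 6.01, 11.3 and 5.86 CPM with saracatinib and 17, 34, 75, 20 and 19.3 CPM with vehicle. No library of the saracatinib group reached the vehicle group (-2.18 ± 0.37, adjusted p = 0.00225). Ltbp2, a latent TGF-beta binding protein, averaged 499 ± 136 CPM with saracatinib and 896 ± 164 CPM with vehicle (-0.84 ± 0.17). Itgav, the integrin chain of the dimers that free latent TGF-beta, changed by -0.59 ± 0.13. Among the targets, Pmepa1, a feedback inhibitor, averaged 73.4 ± 17 CPM with saracatinib and 146 ± 41.3 CPM with vehicle (-0.99 ± 0.16, adjusted p = 0.00207), and Tgfbi, an adhesive matrix protein, changed by -1.10 ± 0.18.

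Of 29 genes of the bone morphogenetic protein (BMP) axis 5 rose and 3 fell (median -0.10), against 5.31% and 8.71% over all genes. In this axis 3 rises and 2 falls held, and the rises numbered 3 without saracatinib library 2. Grem1 (chromosome 2, 113746164 to 113758646), a secreted BMP antagonist, had 13.2, 1.3, 3.62, 9.49 and 3.05 CPM with saracatinib and 20.6, 35.5, 59.5, 13.9 and 20.7 CPM with vehicle. The groups did not overlap, and saracatinib library 1 came within a CPM of vehicle library 4 (adjusted p = 0.00532). The ligand gene Bmp6 averaged 97.3 ± 39.4 CPM with saracatinib and 44.5 ± 6.43 CPM with vehicle (1.13 ± 0.23), with saracatinib library 1 inside the vehicle range. Bmp3, a ligand that opposes other BMPs in bone, changed by 0.59 ± 0.12, and Chrdl1, a BMP-binding antagonist, by 1.13 ± 0.21, so that antagonists went both ways. Of 32 Wnt pathway genes 5 fell and 4 rose (median -0.03), 4 falls and 1 rise held, and without any one of saracatinib libraries 2, 3 and 5 and vehicle libraries 2 and 3 the rises numbered 1 or 2. Sfrp1, a secreted Wnt-binding protein, averaged 41.8 ± 14.5 CPM with saracatinib and 117 ± 67.3 CPM with vehicle (-1.49 ± 0.28), Wnt5a, a ligand of the non-canonical branch, changed by -0.64 ± 0.13, and Frzb, another secreted Wnt-binding protein, by -2.41 ± 0.53. Against 5.31% called higher and 8.71% called lower over all genes, 5 of 48 growth factor and receptor tyrosine kinase genes rose and 6 fell (median 0.13). Of these, 3 rises and 5 falls held. The rises numbered 9 without saracatinib library 1 and 3 without saracatinib library 2 or vehicle library 3. Among those lower, the epidermal growth factor receptor ligand Ereg had 1.08 to 5.71 CPM with saracatinib and 7.16 to 31 CPM with vehicle (-2.21 ± 0.44, adjusted p = 0.00394), and its relative Areg changed by -0.98 ± 0.24.

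The called markers of scar-associated macrophages were lower with saracatinib. Of 29 scar-associated macrophage markers 15 fell and 0 rose (median -0.54), and 11 held. Of the 11, Ctsk and Mmp14 are also on the metalloproteinase list, Ctsk on the alveolar macrophage list and Igf1 on the growth factor list. Cd63, a tetraspanin of late endosomes, averaged 80.5 ± 13.4 CPM with saracatinib and 135 ± 27.5 CPM with vehicle (-0.74 ± 0.12, adjusted p = 0.00198). Ctsk, the collagen-degrading cathepsin K, averaged 37.4 ± 14.2 CPM with saracatinib and 73.6 ± 15.1 CPM with vehicle (-0.98 ± 0.21), and C1qa, a chain of complement C1q made by macrophages, changed by -1.05 ± 0.20. Igf1 (chromosome 10, 87858265 to 87937042), a growth factor of scar macrophages and fibroblasts, had 84.8, 25.5, 55.1, 66.3 and 47.9 CPM with saracatinib and 121, 186, 256, 106 and 138 CPM with vehicle. All saracatinib libraries were lower than all vehicle libraries (-1.53 ± 0.27, adjusted p = 0.00225). In saline lungs Igf1 averaged 20.7 ± 3.16 CPM with saracatinib and 40 ± 10.8 CPM with vehicle. That change, -0.95 ± 0.28, was not called (adjusted p = 0.394). Nor was the difference between the drug effects in bleomycin and saline lungs (-0.58 ± 0.38, adjusted p = 0.445), so the Igf1 fall is not shown to need injury. Spp1 (chromosome 5, 104435118 to 104441050), osteopontin, had 365, 120, 245, 438 and 412 CPM with saracatinib and 513, 832, 1240, 557 and 443 CPM with vehicle. Its groups touched within a few CPM without overlapping (-1.18 ± 0.36, adjusted p = 0.0336). The Spp1 call was lost without any one of saracatinib libraries 2 and 3 and vehicle libraries 2 and 3, where the largest adjusted p was 0.13, as well as in limma voom (adjusted p = 0.0688) and with only the 10 bleomycin libraries in the fit (adjusted p = 0.0506).

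Of 16 genes of alternative macrophage activation 6 fell and 0 rose (median -0.44), and 4 held. Arg1 (chromosome 10, 24915221 to 24927484), arginase 1, had 2.06, 0.361, 1.31, 2.22 and 1.33 CPM with saracatinib and 3.11, 10.2, 22, 4.07 and 6.73 CPM with vehicle. All 5 saracatinib libraries lay below the lowest vehicle library (-2.67 ± 0.47, adjusted p = 0.0023). Retnla, a secreted resistin-like protein, had 20.4 to 75.4 CPM with saracatinib and 108 to 265 CPM with vehicle (-2.11 ± 0.40, adjusted p = 0.00329). Chil3, a chitinase-like protein, averaged 160 ± 30.2 CPM with saracatinib and 384 ± 89 CPM with vehicle (-1.26 ± 0.34, adjusted p = 0.0175), and its call was lost without saracatinib library 3 (adjusted p = 0.0548). Of 23 alveolar macrophage markers 9 fell and 0 rose (median -0.56), 4 held, and the falls numbered 4 or 5 without any one of saracatinib libraries 2 and 3 and vehicle libraries 2 and 3. Without vehicle library 1, 1 gene rose. Plet1 averaged 33.5 ± 4.89 CPM with saracatinib and 57.9 ± 6.82 CPM with vehicle (-0.79 ± 0.13), and F7, coagulation factor VII, changed by -0.84 ± 0.20. Mrc1, the mannose receptor, which stands on the alternative activation and alveolar macrophage lists, changed by -0.97 ± 0.21.

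In the epithelium, a minority of the genes of the transitional alveolar state fell, and most of the epithelial genes tested were not called. Of 28 transitional genes 7 fell and 0 rose (median -0.43), and 6 held. The falls numbered 11 without saline saracatinib library 5, and 1 gene rose without saracatinib library 1. Cldn4 (chromosome 5, 134945119 to 134946934), a tight junction claudin, had 10.9, 3.03, 5.01, 9.34 and 6.95 CPM with saracatinib and 11.7, 23, 33.4, 20.2 and 23.1 CPM with vehicle. The groups did not overlap, and vehicle library 1 was the nearest to the saracatinib group (-1.66 ± 0.33, adjusted p = 0.00407). Sfn, the epithelial 14-3-3 protein sigma, averaged 27.6 ± 6.87 CPM with saracatinib and 47.6 ± 7.09 CPM with vehicle (-0.79 ± 0.17), and Clu, the extracellular chaperone clusterin, changed by -0.69 ± 0.15. Of 29 alveolar type 2 genes 1 rose and 1 fell (median -0.06), and both held. Acoxl, an acyl-CoA oxidase relative, averaged 30.4 ± 15.7 CPM with saracatinib and 11.1 ± 2.15 CPM with vehicle (1.45 ± 0.28), and Ctsh, a cathepsin that processes surfactant protein, averaged 290.4 ± 46.8 CPM with saracatinib and 447 ± 22.3 CPM with vehicle (-0.62 ± 0.11). Sftpc (chromosome 14, 70520949 to 70524081), surfactant protein C, had 2500, 3000, 2090, 2940 and 2920 CPM with saracatinib and 2970, 2340, 2050, 3290 and 2520 CPM with vehicle, fully overlapping (0.03 ± 0.20, adjusted p = 0.94). Of 26 alveolar type 1 genes 0 were called (median 0.19), with 1 lower without vehicle library 5 and 1 higher without saline saracatinib library 5, and Ager, a receptor of type 1 cells, averaged 1120 ± 95.7 CPM with saracatinib and 984 ± 113 CPM with vehicle (0.19 ± 0.27, adjusted p = 0.697). Of 23 club, goblet and basal airway genes 1 rose and 0 fell (median 0.03), and of 23 ciliated cell genes 1 rose and 0 fell (median 0.24). Both rises were lost without any one of saracatinib libraries 2, 3 and 5 and vehicle libraries 2 and 3.

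Most called capillary genes were higher with saracatinib, and the called genes of veins, arteries and activated endothelium were lower. Of 32 capillary genes 6 rose and 1 fell (median 0.37), and 3 rises held. The rises numbered 12 without saracatinib library 1 and 3 without saracatinib library 2, and the fall was lost without any one of saracatinib libraries 2, 3 and 5 and vehicle libraries 2, 3 and 5. Hilpda, a lipid droplet protein, averaged 31.7 ± 7.35 CPM with saracatinib and 15.8 ± 3.99 CPM with vehicle (1.00 ± 0.21), and Cyp4b1, a cytochrome P450 rich in lung, averaged 250.1 ± 58.5 CPM with saracatinib and 133 ± 36.2 CPM with vehicle (0.92 ± 0.18). Of 28 venous, arterial and activated endothelial genes 5 fell and 0 rose (median -0.17), and the 5 held, with 1 rise without any one of saracatinib libraries 1 and 4, saline saracatinib library 5 and saline vehicle library 1. Ackr1, a chemokine-binding receptor of venules, had 2.29, 0.216, 1.08, 1.61 and 1.87 CPM with saracatinib and 2.29, 3.94, 4.55, 3.09 and 3.82 CPM with vehicle, where saracatinib library 1 and vehicle library 1 met (-1.33 ± 0.34, adjusted p = 0.0142). Lrg1, a secreted glycoprotein of activated endothelium, averaged 99.98 ± 40 CPM with saracatinib and 196 ± 22.8 CPM with vehicle (-0.97 ± 0.24), and Cd276, an immune checkpoint ligand, changed by -1.15 ± 0.17.

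All called B cell genes were higher with saracatinib. Of 19 tested genes 9 rose and 0 fell (median 0.69), and 3 held. The rises numbered 3 without saracatinib library 2, 4 without vehicle library 2 and 4 without vehicle library 3. Pax5 (chromosome 4, 44524757 to 44710487), the transcription factor that fixes B cell identity, had 18.4, 21.5, 16.3, 17.9 and 14.1 CPM with saracatinib and 9.33, 8, 6.63, 11.6 and 8.47 CPM with vehicle. The lowest saracatinib library was above the highest vehicle library (1.01 ± 0.19, adjusted p = 0.00338). In saline lungs Pax5 averaged 15.9 ± 3.69 CPM with saracatinib and 11 ± 3.26 CPM with vehicle (0.53 ± 0.19, adjusted p = 0.527, not called). The difference between the drug effects in bleomycin and saline lungs was not called (0.47 ± 0.27, adjusted p = 0.378), so the Pax5 rise is not shown to need injury. Fcer2a, the low-affinity IgE receptor, averaged 15.1 ± 3.44 CPM with saracatinib and 6.99 ± 2.34 CPM with vehicle (1.11 ± 0.26). Ighm, the heavy chain of immunoglobulin M, was at 1180 CPM in saracatinib library 1 and at 90.7 to 181 CPM in the other 4, against 68.8 to 352 CPM with vehicle, and was not called (1.00 ± 0.59, adjusted p = 0.276). Of 33 T and NK cell genes 1 rose and 2 fell (median 0.04), and both falls held. The rise was lost without saracatinib library 2 or vehicle library 3, and rises numbered 3 without vehicle library 1 and 2 without vehicle library 4, while 5 genes fell without saracatinib library 1 and 4 without vehicle library 2. One that held was Havcr2, an inhibitory receptor also present on macrophages, at 13.2 ± 2.56 CPM with saracatinib and 25.6 ± 8.02 CPM with vehicle (-0.95 ± 0.18).

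**Figure D5:**
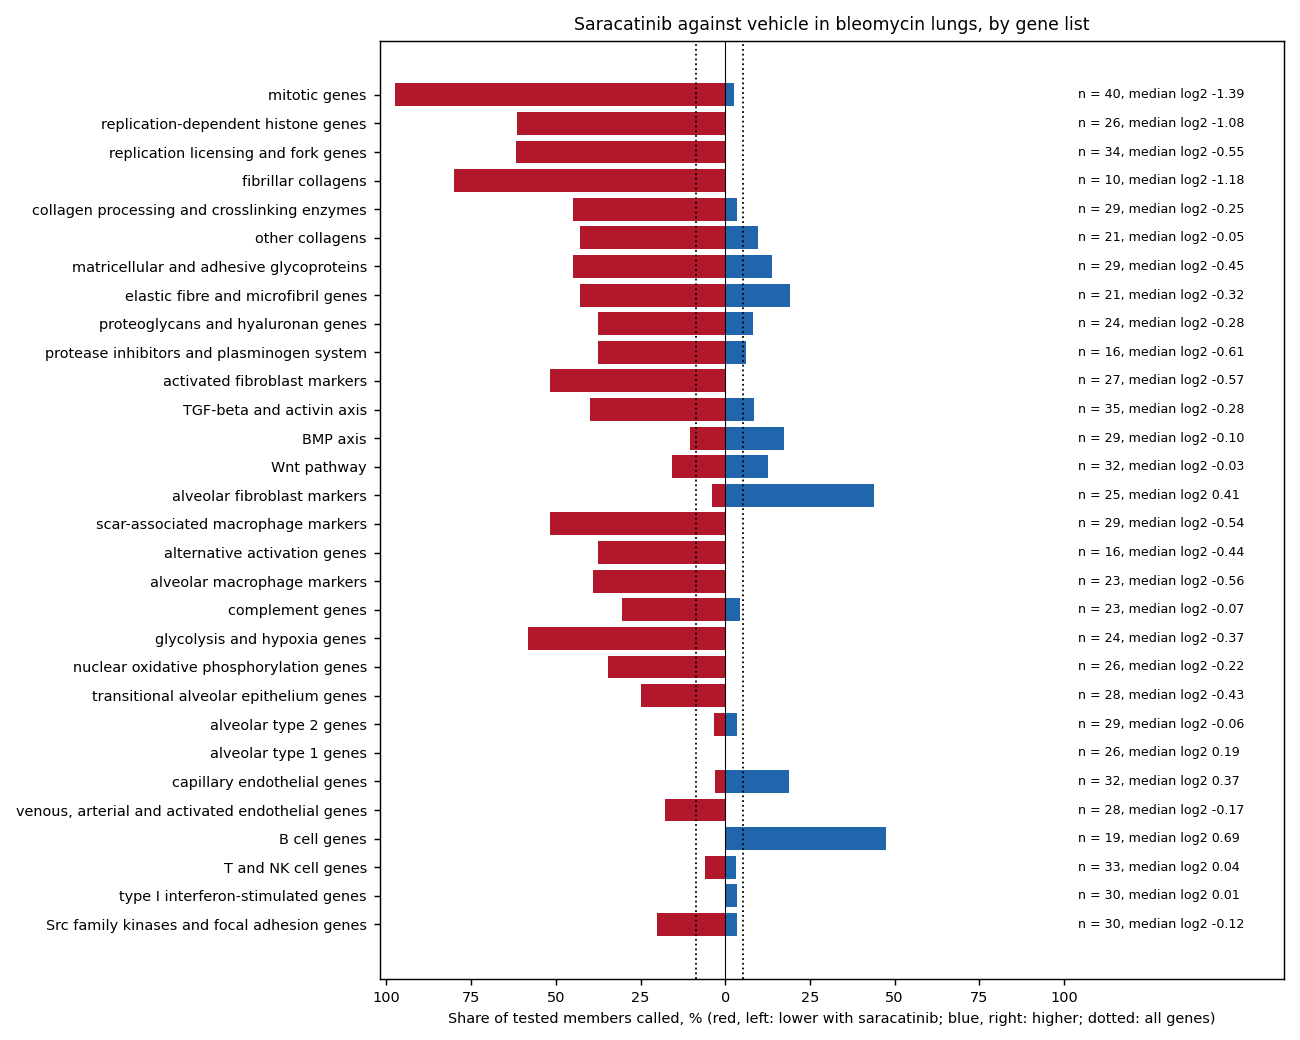
For each list shown, bars give the percentage of tested members called lower (red, left) and higher (blue, right) with saracatinib. The number tested and the median log2 fold change stand at the right. Dotted lines mark the shares over all 18846 genes, 8.71% lower and 5.31% higher.

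The transcript of Src, the kinase that gives the drug's target family its name, was not called. Src (chromosome 2, 157418444 to 157471862) had 103, 102, 95.2, 103 and 97.3 CPM with saracatinib and 105, 94.1, 110, 109 and 113 CPM with vehicle. The groups overlapped (-0.08 ± 0.06, adjusted p = 0.355), and kinase activity was not measured. Of 30 genes of Src family kinases and focal adhesions 6 fell and 1 rose (median -0.12), and 3 falls and the rise held. The falls numbered 3 without any one of saracatinib libraries 2 and 5 and vehicle libraries 2 and 3. The riser was Blk, the family member of B cells, at 7.4 ± 1.55 CPM with saracatinib and 4.33 ± 0.718 CPM with vehicle (0.78 ± 0.20, adjusted p = 0.0132). Blk also stands on the B cell list above and is among the 3 rises that held there. Cttn, cortactin, an actin-binding substrate of Src, changed by -0.26 (adjusted p = 0.00642), and Abl2, a kinase related to Abl, changed by -0.31 ± 0.07.

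The called genes of glycolysis and oxidative phosphorylation were lower. Of 24 glycolysis and hypoxia genes 14 fell and 0 rose (median -0.37), and 7 held. The falls numbered 7 without any one of saracatinib libraries 2 and 3 and vehicle library 3, and 9 without saracatinib library 5 or vehicle library 2. Ldha, lactate dehydrogenase A, averaged 148 ± 21.1 CPM with saracatinib and 235 ± 34.9 CPM with vehicle (-0.67 ± 0.10, adjusted p = 0.00198), and the enolase gene Eno1 changed by -0.76 ± 0.13. Of 26 nuclear genes of oxidative phosphorylation 9 fell and 0 rose (median -0.22), and 5 held. The falls numbered 5 without any one of saracatinib libraries 2 and 3 and vehicle library 3, and 14 without vehicle library 5. Cox4i1, a cytochrome oxidase subunit, changed by -0.40 ± 0.09. Of 11 mitochondrially encoded genes 0 were called (median 0.05), with 1 higher without saline saracatinib library 5. Of 16 genes often used as references 8 fell and 0 rose (median -0.23), and 5 held. The falls numbered 5 without any one of saracatinib libraries 2, 3 and 5 and vehicle library 3. Gapdh, a glycolytic enzyme and common reference, averaged 188 ± 29.9 CPM with saracatinib and 287 ± 53.8 CPM with vehicle (-0.61 ± 0.12, adjusted p = 0.00317), and Rplp0, a ribosomal protein gene, changed by -0.39 ± 0.09.

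The largest changes by fold, among genes of at least 1 CPM on average over the 10 libraries, included several genes outside the lists described above. Colq, the collagen-like tail of acetylcholinesterase, had 8.99, 22.1, 15.9, 7.43 and 17.3 CPM with saracatinib and 4.66, 2.8, 0.77, 3.71 and 1.74 CPM with vehicle, without overlap (2.40 ± 0.35, adjusted p = 0.00198). The predicted gene Gm13387 averaged 7.67 ± 3.41 CPM with saracatinib and 2.24 ± 0.373 CPM with vehicle (1.77, adjusted p = 0.00542). At the other end, Tnfsf18, the ligand of a T cell costimulatory receptor of the TNF receptor family, had 0.686, 0.144, 0.154, 0.766 and 0.547 CPM with saracatinib and 1.47, 3.49, 7.55, 0.972 and 3.05 CPM with vehicle. There was no overlap, at low levels (-2.84 ± 0.54, adjusted p = 0.00317). Kcnt1, a sodium-activated potassium channel, averaged 1.48 ± 0.743 CPM with saracatinib and 7.34 ± 1.77 CPM with vehicle (-2.30 ± 0.38, adjusted p = 0.00207). It belongs to the list of ion channels and adrenergic receptors, which is described further below.

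The saline groups give the drug without injury. In saline lungs edgeR called 1 of 18846 genes (0.00531%), with 1401 at an unadjusted p under 0.05. DESeq2 called 52, and leaving out 1 library gave 0 without saline saracatinib library 3, 9 without bleomycin vehicle library 3, and 2 to 4 without any one of bleomycin saracatinib library 3, saline saracatinib library 2 and saline vehicle libraries 1 and 5. The gene was Adamtsl2, a matrix protein that binds latent TGF-beta binding proteins, named after its value was seen, at 90.3 CPM with saracatinib and 201.7 CPM with vehicle (-1.16, adjusted p = 0.00841). In bleomycin lungs its change was -0.44 (adjusted p = 0.0656). The difference between the saracatinib effect in bleomycin and in saline lungs was called for 199 genes (1.06%), 115 positive and 84 negative. That count was 838 in DESeq2 and 415 in limma voom. It was 583 without bleomycin saracatinib library 1 and 435 without bleomycin vehicle library 1. Leaving out any one of bleomycin saracatinib libraries 2, 3 and 5, bleomycin vehicle libraries 2 and 3, saline saracatinib libraries 1, 2, 3 and 5 and the 5 saline vehicle libraries gave 35 to 100 genes. In the 20-gene panel it was called for Slc7a10 (3.15 ± 0.43, adjusted p = 0.00423), whose drug effect in saline lungs was -0.74 ± 0.28 and not called, and this held without any one of the 20 libraries. It was also called for Cthrc1, Fst, Tcf21 and Cldn4. Of the 20 fits without 1 library, the Cthrc1 difference was called in 17, not without saracatinib libraries 2 and 3 and vehicle library 2, and the others in 8 each.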

How the data were processed

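RNA of left lungs was depleted of ribosomal RNA and sequenced with a stranded kit. Per the submitters' processing notes, reads went through STAR 2.6.1d, Picard and featureCounts of Subread 1.6.3, with edgeR also named. Builds named there are mm9 and GRCm38. All 55536 identifiers are in GENCODE M21 on GRCm38, from which coordinates were taken. The sources used here do not give the strand setting of counting, which leaves overlapping and antisense genes uncertain.

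The deposited table holds raw counts, 1 whole number per gene and library. From these counts, edgeR 4.0.16 in R 4.3.3 was run with filterByExpr by group, TMM scaling and a quasi-likelihood fit of the 20 libraries of the bleomycin model, with a coefficient for each group, without covariates. The Benjamini-Hochberg adjustment ran over all 18846 tested genes. Log2 CPM, used for list levels and principal components, has a prior count of 2. The fitted fold changes do not use that value but edgeR's default prior, on which those of genes near 0 depend. The SE is the fold change divided by the root of its F statistic. Replicates were compared, and over 40 pairs the chi-square per degree of freedom ran from 4.29 to 52.7, so none was a copy of another.

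The members, the 61 lists, the 20-gene panel and the settings were chosen with earlier results of these data known. Genes eligible to be named were the panel, on each side the 15 calls of largest fold among named genes that averaged 1 CPM or more without overlap (immunoglobulin and T cell receptor segments left out), and up to 5 called members per list by p (with fewer than 2 called, up to 3 by CPM). The text describes part of these genes, and results of 2 of them are not reported here. Other settings were DESeq2's size factors, no filter, DESeq2 1.42.0, limma 3.58.1 voom with quality weights, only the 10 bleomycin libraries, each library left out, and vehicle library 3 with saline saracatinib library 5 left out.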

Additional observations from a re-analysis of the deposited data

Results flagged for a closer look

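In saline lungs given vehicle, Slc7a10 in library 5 stood far above the other 4 libraries of its group, with a gap of 0.919 of the group's range, where 0.71 is the critical value for 5 libraries. It was the 1 such value among 104 groups examined, and chance gives about 5%.

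The saracatinib effect in bleomycin lungs less the one in saline lungs, a log2 difference with edgeR's adjusted p, passed the threshold for 5 of the 20 panel genes. It was -2.21 for Cthrc1 (adjusted p = 0.0224), -2.48 for Fst (adjusted p = 0.0368), 3.15 for Slc7a10 (adjusted p = 0.00423), 1.29 for Tcf21 (adjusted p = 0.0364) and -2.36 for Cldn4 (adjusted p = 0.0357). The effect in saline lungs was 0.17 ± 0.33 for Cthrc1, 0.31 ± 0.40 for Fst, -0.74 ± 0.28 for Slc7a10, -0.35 ± 0.20 for Tcf21 and 0.70 ± 0.38 for Cldn4, and none of these 5 was called. Without 1 of the 20 libraries, the largest adjusted p was 0.0558 for Cthrc1, 0.0817 for Fst, 0.0167 for Slc7a10, 0.0785 for Tcf21 and 0.0769 for Cldn4, and the 5 were called by DESeq2 and by limma voom.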

How the results depend on the processing

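The genes called in bleomycin lungs numbered 2643, or 2678 with DESeq2's size factors, 1925 with no filter, 3291 in DESeq2, 2886 in limma voom, 2020 with only the 10 bleomycin libraries, 1326 to 3120 with 1 library left out and 1661 without vehicle library 3 and saline saracatinib library 5. Calls shared with the full fit kept their direction in each of these settings. The 1001 higher genes were 594 with no filter, where more genes were tested, 472 to 1227 with 1 library left out and 627 without those 2 libraries. The 1642 lower genes were 854 to 1904 and 1034 in the last pair of settings. The difference between bleomycin and saline lungs gave 199 genes, against 838 in DESeq2, 415 in limma voom, 35 to 583 with 1 library left out and 54 without the 2 libraries. Saline lungs gave 1 gene, against 3 with no filter, 52 in DESeq2, 9 in limma voom, 0 to 9 with 1 library left out and 3 without the 2 libraries. Where the cause is not given, it was not tested.

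Of 6577 values of 253 named genes under other settings, 6246 kept direction and call, 297 lost the call, 8 gained it and 26 changed sign, the last all in genes that were not called. Sftpc was -0.0620 in limma voom, -0.0482 without the 2 libraries and -0.0486 to 0.123 with 1 library left out. Under the last setting Fabp4 was -0.420 to 0.150, Dnah5 -0.0299 to 0.301, Per1 -0.241 to 0.168, Scgb1a1 -0.0229 to 0.145, Ighm -0.396 to 1.45, Xbp1 -0.00892 to 0.0778 and Ifih1 -0.0287 to 0.0241. Without the 2 libraries Dnah5 was -0.0294, Per1 0.168, Scgb1a1 -0.00343 and Ifih1 -0.00594. Per1 was 0.0429 in limma voom, and Ifih1 -0.0118 with no filter. Of the 3172 list counts, 335 moved by more than 1.5 times. No paired analysis was possible because the labels number no replicates across groups. DESeq2's size factors shifted the median of all genes by -0.0028.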

Other observations

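Called ion channel and receptor genes, some better known from nerve and muscle, were more often higher than lower with saracatinib. Most of the list was not called. Of 29 ion channel and adrenergic receptor genes 5 rose and 2 fell (median 0.15), and 4 rises and 1 fall held without each bleomycin library. The fall that held was Kcnt1, described above, at -2.30 ± 0.38, the largest change of the list in either direction. The falls numbered 1 without any one of saracatinib library 2 and vehicle libraries 2, 3 and 5, and the rises 8 without saline saracatinib library 5. Adra1a, the alpha 1A adrenergic receptor, had 20, 43.4, 41.6, 28.2 and 32.3 CPM in saracatinib libraries and 17.8, 8.58, 5.62, 15.6 and 9.72 CPM in vehicle libraries, without overlap (1.54 ± 0.27, adjusted p = 0.00231). Kcna2, a voltage-gated potassium channel, averaged 22.2 ± 6.16 CPM with saracatinib and 8.44 ± 3.44 CPM with vehicle (1.41 ± 0.25). Scn3a, a voltage-gated sodium channel, averaged 49.2 ± 13.8 CPM with saracatinib and 22.1 ± 4.24 CPM with vehicle (1.15 ± 0.20). Gria1, an AMPA-type glutamate receptor subunit, changed by 1.87 ± 0.35, with saracatinib library 1 inside the vehicle range. Saline lungs held Adra1a at 46.6 CPM with saracatinib and 70.4 CPM with vehicle.

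Noncoding and coding transcripts had opposite balances. Of 14738 protein coding genes tested 834 rose (5.66%) and 1586 fell (10.8%), whereas of 1704 genes of long noncoding types 108 rose (6.34%) and 26 fell (1.53%). The laminin chain Lama1, an embryonic basement membrane component, averaged 31 ± 18.3 CPM with saracatinib and 91.7 ± 33.5 CPM with vehicle (-1.56 ± 0.36). Hapln1, a link protein of cartilage matrix, averaged 0.561 ± 0.155 CPM with saracatinib and 1.66 ± 0.295 CPM with vehicle (-1.55 ± 0.24). Cardiomyocyte genes numbered 2 higher of 21 (median 0.71) and 0 without any one of saracatinib libraries 1, 2 and 4 and vehicle libraries 2 and 3. They included the sarcomere gene Myom2 at 2.7 to 6.58 CPM with saracatinib and 0.308 to 1.94 CPM with vehicle (1.62 ± 0.50, adjusted p = 0.0372). The part of heart tissue in other results was not tested. Of 12 adipocyte genes 1 rose, with 6 without vehicle library 1 and 0 without vehicle library 2 or 3, and Fabp4, a fatty acid carrier, averaged 11.7 ± 5.6 CPM with saracatinib and 13.3 ± 6.36 CPM with vehicle (-0.17 ± 0.46). The ciliary dynein gene Dnah5 (0.12 ± 0.31), the clock gene Per1 (-0.14 ± 0.21), the plasma cell factor gene Xbp1 (0.02 ± 0.07), the viral RNA sensor gene Ifih1 (0.00 ± 0.09) and the club cell gene Scgb1a1 (0.06 ± 0.18) were not called. Of 30 type I interferon-stimulated genes 1 rose and 0 fell (median 0.01), and the rise was lost without any one of 11 libraries, which were saracatinib libraries 2, 4 and 5, vehicle libraries 1, 2, 3 and 5, saline saracatinib library 3 and saline vehicle libraries 2, 3 and 4.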
